A study of Mus musculus with 24 samples.

Results

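Prostaglandins and their relatives are short-lived lipid signals made from arachidonic acid. A cyclooxygenase, encoded by Ptgs1 (the constitutive form) or Ptgs2 (the inducible form, COX-2), makes the intermediate prostaglandin H2. Downstream synthases turn it into prostaglandin E2, prostaglandin D2, prostacyclin or thromboxane, and a dehydrogenase inactivates the products. In the brain, endothelial COX-2 and microsomal prostaglandin E synthase are best known for relaying inflammatory signals from blood to tissue. Both are also induced in activated microglia.

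The genes described here are the 2 cyclooxygenases Ptgs1 and Ptgs2, the prostaglandin E synthases Ptges, Ptges2 and Ptges3, the prostaglandin D synthases Ptgds and Hpgds, the prostacyclin synthase Ptgis, the thromboxane synthase Tbxas1 and the prostaglandin dehydrogenase Hpgd. They were chosen by symbol, and all 10 were found among the 20555 genes of each of 2 tables. The tables hold RNA sequencing of endothelial cells (CD45- CD31+) and microglia (CD45+ with low CD11b and CD49d) sorted from mouse brain slices. Slices received PBS, or 5 µg per slice of exosomes carrying the green membrane dye PKH67, on 2 consecutive days. The exosomes are labelled wild type (WT), knock out 1 (KO1) and knock out 2 (KO2). The series title names CEMIP in tumour exosomes, so the knockouts are read here as changes of the exosome donors and not of the mouse. The sources used here do not give the donor line, the number of clones, or the strain and age of the mice. All samples, PBS included, are labelled as sorted for exosome signal. The design asks what exosomes change against PBS and whether knockout exosomes differ from WT exosomes.

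The endothelial table held 10 libraries (3 PBS, 2 WT, 3 KO1, 2 KO2) and the microglial one held 11 (2 PBS and 3 of each exosome group). Each library carries a letter, A, B or C. The labels do not say whether letters mark separate animals, cultures or days, so the p-values rest on a spread among libraries that may be technical only. Levels are normalised counts recovered from the deposited log2 values, whose totals were 25.7 to 28.0 M per endothelial library and 27.0 to 29.4 M per microglial library. Estimated depth was 18.3 to 35.5 M reads per endothelial library, and that of microglia is unknown. The sum of endothelial markers ran from 270943 to 347183 counts in the endothelial table and from 328.0 to 936.1 in the microglial one. Microglia held Trem2 (979.4 to 3197 counts), whereas P2ry12, a defining gene of resting microglia, was at 0 in 10 of 11 libraries. Endothelial libraries also held choroid plexus and ependyma markers, which differed by group and letter: 12 such genes summed to 964.9 to 7357 with PBS, to 201900 to 359791 in the 5 exosome libraries lettered A or B, and to 6727 and 22843 in the exosome libraries lettered C. In bulk samples, fewer cells of a type and less RNA per cell cannot be told apart.

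Promoter sequences are shown for Ptgs2 and Ptges, the members with the widest ranges among the strongly expressed ones. They are the 250 bases before the RefSeq start on GRCm38.p6, read on the gene's strand. Ptgs2 lies on chromosome 1 (150100031 to 150108234, plus strand) and its window is chr1:150099781-150100030. Ptges lies on chromosome 2 (30889471 to 30931020, minus strand) and its window is chr2:30903298-30903547. That RefSeq gene span reaches further upstream than the start used for the promoter, so the window lies inside it. The last sequence is an 18-base stretch just inside the Ptgs2 transcript, chr1:150100039-150100056 on the plus strand. Capitals mark GC boxes (GGGCGG) and the C/EBP palindrome TTGCGCAA in the promoters, and in the short stretch a cyclic AMP response element core (ACGTCA) overlapped by an E-box (CACGTG).
Ptgs2: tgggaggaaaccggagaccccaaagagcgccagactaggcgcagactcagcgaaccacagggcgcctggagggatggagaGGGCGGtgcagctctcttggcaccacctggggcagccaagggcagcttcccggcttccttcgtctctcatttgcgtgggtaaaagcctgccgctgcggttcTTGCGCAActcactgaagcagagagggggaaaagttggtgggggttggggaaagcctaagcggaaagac
Ptges: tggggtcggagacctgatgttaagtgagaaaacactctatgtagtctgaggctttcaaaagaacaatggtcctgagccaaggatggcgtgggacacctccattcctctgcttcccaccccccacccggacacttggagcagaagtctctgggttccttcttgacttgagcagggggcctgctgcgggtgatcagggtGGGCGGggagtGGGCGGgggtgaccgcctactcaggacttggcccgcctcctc
Ptgs2 site: cactACGTCACGTGgagt

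Both strands of 32851 promoters, each 300 bases from 250 before to 50 after the start, were searched for these letters. TTGCGCAA occurred in 0.183% of them, and among the 9 members with a promoter in the table it occurred in Ptgs2 only, 69 bases before the start. ACGTCA was held by 7.51% of all promoters and, among members, by Ptgs2. CACGTG was held by 7.15%, and among members by Ptgs2 and Ptges2. GC boxes occurred in 35.7% of all promoters and in Ptgs2, Ptges, Ptges3 and Hpgd, with a pair of them 42 and 53 bases before the Ptges start. A loose NF-kB pattern was found in 20.7% of promoters and among members only in Ptges3. The AP-1 pattern TGANTCA (7.81%) occurred in Ptgds and Tbxas1, and TATAAA (13.6%) in Tbxas1 and Hpgd. These are matches of letters and not measured binding.

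Ptgs2 was the member with the highest count in every endothelial library. With PBS it stood at 23008, 22767 and 17210 normalised counts in A, B and C. With WT exosomes it reached 67751 and 50601 in A and B. KO1 libraries held 45257, 53308 and 28966 in A, B and C, and KO2 libraries 71477 and 33073 in B and C. All 7 exosome libraries therefore lay above all 3 PBS libraries. Of the 12197 genes tested, 136 (1.12%) separated in that direction, and Ptgs2 was the 1 of 8 tested members that did. PBS libraries averaged 20995 ± 3280 (SD, n = 3), and exosome libraries averaged 50062 ± 16016 (SD, n = 7), a ratio of 2.38. On the deposited log2 scale, which compresses differences, the difference was 0.83 ± 0.189 (SE; 95% interval 0.41 to 1.26). It did not pass the limma test across all genes (Benjamini-Hochberg adjusted p = 0.26, unadjusted p = 0.00156, rank 73), where 0.148% of genes were called, all of them lower with exosomes. The adjusted p ranged from 0.108 to 0.933 over the alternative settings. In the authors' deposited table of a likelihood ratio test, Ptgs2 was the only member listed for endothelial cells, with an adjusted p of 4.34e-07. Which groups that test set against each other is not stated.

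**Figure D1:**
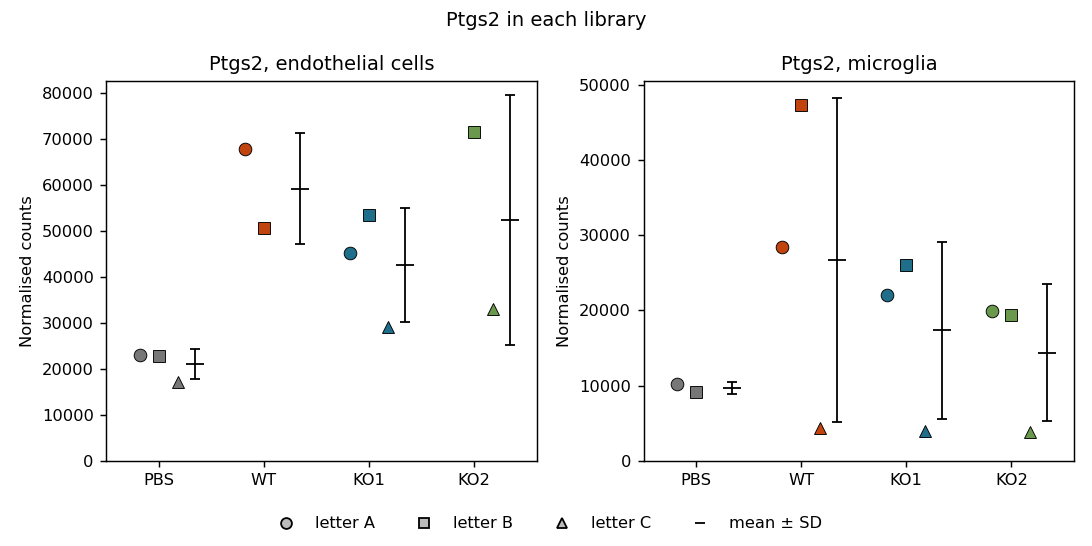
Normalised counts of Ptgs2 (vertical axes, linear from 0) in each library by group, in endothelial cells and microglia. Symbols give the letter and bars the mean and SD. All 7 endothelial exosome libraries sit above the PBS libraries, while the 3 microglial exosome libraries lettered C sit at 3822 to 4291, below PBS.

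Within letters the endothelial ratio to PBS held in each of the 7 available pairs but was smaller in C. WT exosomes stood at 2.94 times PBS in A and 2.22 times in B. KO1 stood at 1.97, 2.34 and 1.68 times PBS in A, B and C. KO2 stood at 3.14 times in B and 1.92 times in C. The letters also divide the choroid plexus markers: 7 to 9 of the 12 reached 100 counts in the exosome A and B libraries, against 1 to 3 in PBS and in exosome C libraries. Within C the marker sum was 964.9 with PBS, 6727 with KO1 and 22843 with KO2, so it was higher with exosomes there too. The part of these markers in the Ptgs2 values was not tested.

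Between exosomes, endothelial Ptgs2 was not resolved. The difference of knockout minus WT was -0.28 ± 0.23 (SE; interval -0.80 to 0.24; limma adjusted p = 0.782), where 0.0% of genes were called. The value rested on which libraries were included: it was 0.015 without the C libraries, which have no WT counterpart here, and -0.71 without the B exosome libraries (adjusted p = 0.172). Leaving out 1 library gave -0.48 without KO2 B, -0.44 without WT B, -0.12 without WT A and -0.07 without KO2 C, and none of these passed. KO1 minus KO2 was -0.18 ± 0.249 (SE; adjusted p = 0.938). WT minus PBS was 1.02 ± 0.249 (SE; interval 0.46 to 1.58; adjusted p = 0.297).

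In microglia Ptgs2 divided by letter. PBS libraries held 10262 and 9165 counts in A and B. WT libraries held 28403, 47414 and 4291 in A, B and C. KO1 libraries held 22047, 25991 and 3989, and KO2 libraries 19912, 19447 and 3822. The 6 exosome libraries lettered A or B were all above PBS, and the 3 lettered C were below it, with no microglial PBS C library analysed here to set beside them. Of 12002 genes tested, 30 (0.25%) had that pattern, and Ptgs2 was the 1 of 9 tested members among them. The pattern was described from Ptgs2 itself, so its place among these genes is not a test. Within letter A, WT, KO1 and KO2 stood at 2.77, 2.15 and 1.94 times PBS. Within B they stood at 5.17, 2.84 and 2.12 times PBS.

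Over all letters, exosomes minus PBS was 0.58 ± 0.814 (SE; interval -1.20 to 2.37; limma adjusted p = 0.947), where 0.00833% of genes were called. This fit sets PBS libraries of A and B against exosome libraries of A, B and C. Without the C libraries the difference was 1.38 ± 0.217 (SE; adjusted p = 0.249). A limma fit with a letter term over all libraries gave 1.382 and passed (adjusted p = 0.0427), as did WT minus PBS there (adjusted p = 0.0292). With a letter term and without the C libraries, Ptgs2 did not pass. In the authors' deposited table Ptgs2 was again the only member listed for microglia, with an adjusted p of 1.02e-10. WT was above both knockouts in A and in B, and in C the 3 exosome libraries lay within 3822 to 4291. The ratio of KO1 to WT was 0.776, 0.548 and 0.93 in A, B and C, and that of KO2 to WT 0.701, 0.41 and 0.891. All 6 ratios were below 1, but the tested difference of knockout minus WT, -0.57 ± 0.737 (SE; interval -2.19 to 1.04), did not pass (adjusted p = 1). WT minus PBS was 0.96 ± 0.951 (SE; adjusted p = 0.978), or 1.92 without the C libraries (adjusted p = 0.173), and KO1 minus KO2 0.21 ± 0.85 (SE; adjusted p = 1). Markers of border-associated macrophages also differed by letter. The sum of 10 such genes was highest in the exosome B libraries, at 7919 to 9511 against 2767 in PBS B. In A it was 4807 to 5419 against 5034 in PBS A, and in the exosome C libraries it was 2642 to 3434. Cd163 and Cbr2 were at 0 throughout, Lyve1 in 10 of 11 libraries, F13a1 and Clec10a in 8, Mrc1 in 6 and Folr2 in 2. Only Pf4 (368.2 to 4925), Ms4a7 (102.5 to 1737) and Stab1 (1232 to 3898) were above 0 in all libraries. The part of these 10 markers in the Ptgs2 values was not tested.

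Ptges encodes the inducible microsomal prostaglandin E synthase that works together with COX-2. In endothelial cells it was abundant in every group: 16925, 17547 and 14841 counts with PBS, 18737 and 14449 with WT, 18038, 13607 and 16380 with KO1, and 19520 and 9695 with KO2. The exosome range of 9695 to 19520 enclosed all PBS values. The difference was -0.04 ± 0.106 (SE; interval -0.28 to 0.19; limma adjusted p = 0.977). Endothelial Ptges thus did not separate by group as Ptgs2 did, and the difference between these genes was not itself tested.

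In microglia Ptges followed the letters. PBS libraries held 2252 and 4767 counts, WT libraries 22790, 9813 and 3304, KO1 libraries 24115, 9178 and 2990, and KO2 libraries 6427, 13505 and 1816, in letter order. All 6 exosome A and B libraries lay above both PBS libraries, as for 4.13% of genes, and Ptgs2 was the only other of the 9 members to do so. In A the ratio to PBS was 10.1 for WT, 10.7 for KO1 and 2.85 for KO2, and in B it was 2.06, 1.93 and 2.83. The largest ratios of Ptges were thus in A for WT and KO1, whereas those of Ptgs2 were in B. The C libraries were below every other exosome library for Ptges and Ptgs2, as for 3.12% of genes. Over all letters the difference was 0.98 ± 0.689 (SE; interval -0.53 to 2.49; adjusted p = 0.943), and without the C libraries it was 1.57 ± 0.457 (SE; adjusted p = 0.564).

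**Figure D2:**
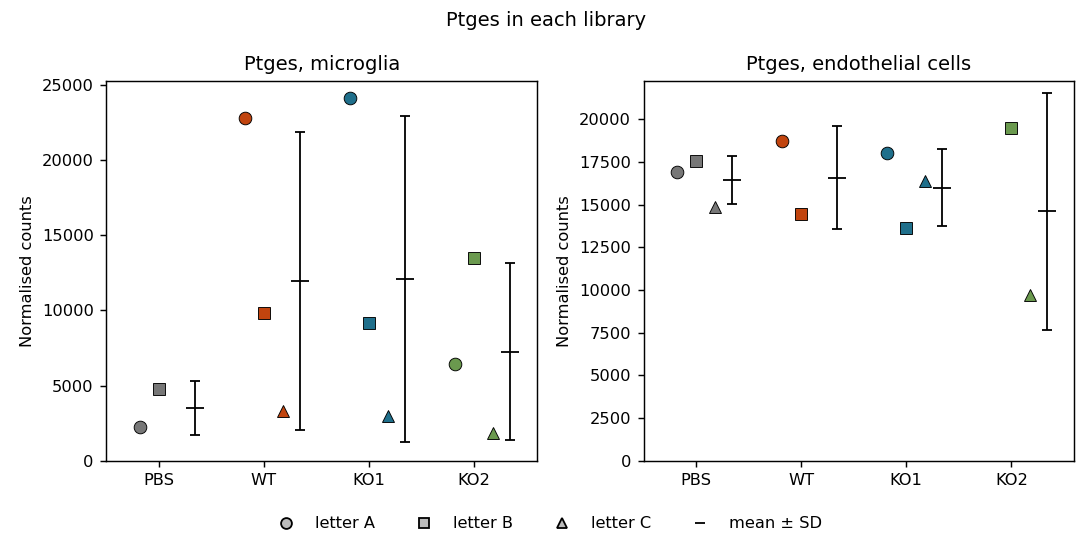
Normalised counts of Ptges (vertical axes, linear from 0) in each library by group, in microglia and endothelial cells, with letters as symbols and bars for the mean and SD. Microglial exosome libraries span 1816 to 24115 and divide by letter, while endothelial PBS and exosome values overlap.

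The other prostaglandin E synthases differed less between libraries. Ptges3, a cytosolic synthase that is also the Hsp90 co-chaperone p23, stood at 12426 to 15234 counts in PBS endothelial cells and 9496 to 14122 with exosomes. The corresponding ranges in microglia were 7190 to 8899 and 6411 to 9227. The differences were -0.10 ± 0.0747 (SE; limma adjusted p = 0.862) in endothelial cells and -0.09 ± 0.132 (SE; adjusted p = 0.949) in microglia. Of its 31-base words, 20.3% also occur in the pseudogene Ptges3-ps, so its level is uncertain. Ptges2, a membrane-associated synthase, stood at 942.3 to 1115 counts with PBS and 623.1 to 1723 with exosomes in endothelial cells, and at 727.3 to 1495 and 668.4 to 1717 in microglia. Its differences were 0.05 ± 0.0665 (SE; adjusted p = 0.949) and -0.04 ± 0.132 (SE; adjusted p = 0.98).

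Ptgs1 showed a different pattern in endothelial cells, where it was present in both WT libraries and nearly absent elsewhere. It stood at 686.6 and 704.9 counts in WT A and B, equal to 648 and 822 reads. PBS B held 104.3 counts (76 reads), KO1 B held 4.3 (6 reads), and the other 6 libraries held 0, which allows up to 3 reads, or at most 4.59 counts. Both WT libraries lay above every other library, as they did for 384 genes (3.15%), Ptgs1 being the 1 of 8 members. Values at the floor hardly vary, which makes the SE small, so the rank and adjusted p of Ptgs1 rest in part on them. With log2 of recovered counts plus 10, knockout minus WT was -6.054 ± 1.01 (SE; limma adjusted p = 0.103). On the deposited scale it was -0.38 ± 0.0442 (SE; interval -0.47 to -0.28), second of 12197 genes by p. It missed the threshold (limma adjusted p = 0.0617) and lay on both sides of it over the alternatives (0.0186 to 0.651), passing without PBS B (0.0186) or without WT B (0.0454). Without PBS B, Ptgs1 met the filter of 3 libraries only with the 6 reads of KO1 B. WT minus PBS was 0.33 ± 0.048 (SE; adjusted p = 0.0968), exosomes minus PBS 0.08 ± 0.0365 (SE; adjusted p = 0.629), and KO1 minus KO2 0.01 ± 0.048 (SE; adjusted p = 0.999). Microglial markers, whose cells express Ptgs1, summed to 1172 and 2019 in the WT libraries. They summed to 1762 in KO1 C and 2090 in KO2 B, where Ptgs1 was at 0. The WT group held 2 libraries, and the endothelial WT C library was not analysed here.

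**Figure D3:**
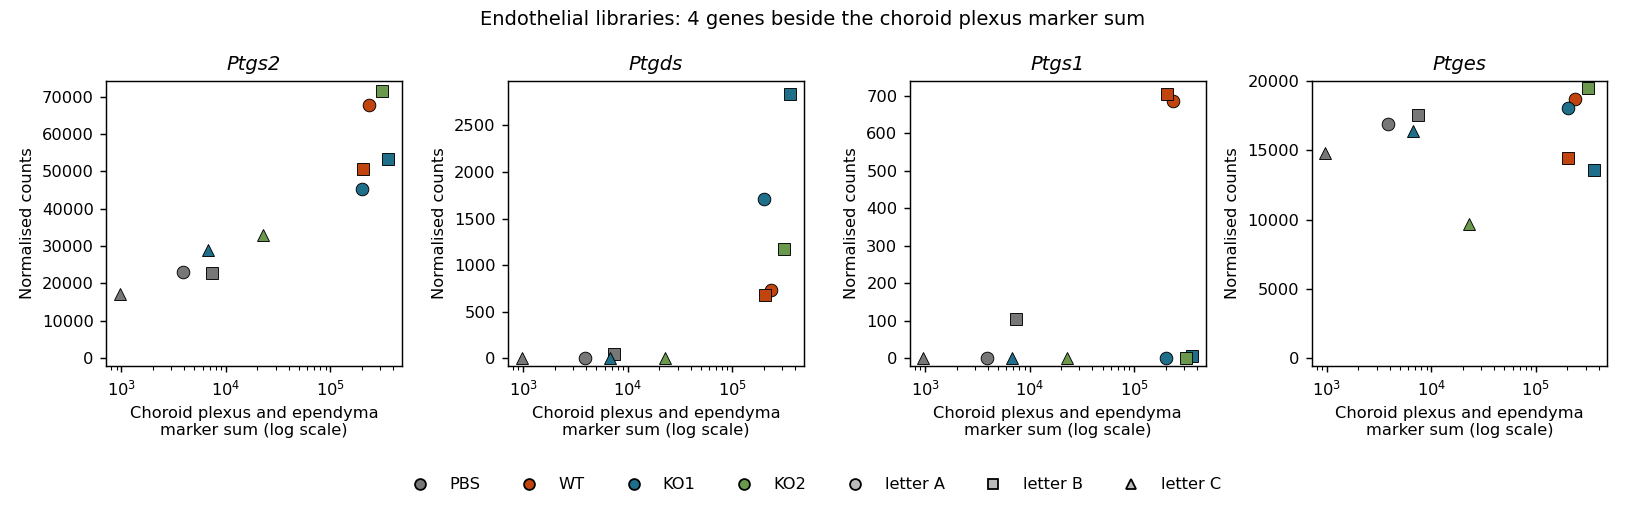
Normalised counts of Ptgs2, Ptgds, Ptgs1 and Ptges (vertical axes, linear) in the 10 endothelial libraries against the sum of 12 choroid plexus and ependyma markers (horizontal axes, log scale), with colours for groups and symbols for letters. Ptgds is above 600 only in the 5 libraries with marker sums of 201900 or more, Ptgs1 only in both WT libraries, and Ptges is at similar levels at low and high sums.

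Microglia expressed Ptgs1 in all 11 libraries. It stood at 1914 and 3667 counts with PBS, at 909.5, 3238 and 1496 with WT, at 1591, 3278 and 1205 with KO1, and at 373.7, 1252 and 1346 with KO2. The B library was the highest of PBS, WT and KO1, and the exosome values ran from below to within the PBS range. The differences were -0.42 ± 0.242 (SE; limma adjusted p = 0.943) for exosomes minus PBS, -0.32 ± 0.282 for WT minus PBS, -0.14 ± 0.219 for knockout minus WT and 0.41 ± 0.253 for KO1 minus KO2 (adjusted p = 0.978, 1 and 1). KO2 A and KO2 B stood at 0.195 and 0.341 times the PBS library of their letter, the lowest of the ratios to PBS.

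Prostaglandin D2 is made by Ptgds, the lipocalin-type synthase of choroid plexus, meninges and oligodendrocytes, and by Hpgds, the haematopoietic synthase. The WT libraries of endothelial cells held 731.9 (A) and 672.7 (B) counts of Ptgds, KO1 held 1706 (A) and 2836 (B), and KO2 B held 1168. It was at 0 in KO1 C and KO2 C, and at 0, 38.9 and 0 in PBS. The 5 libraries that held it were the 5 with choroid plexus marker sums of 201900 or more, and the part of those markers was not tested. The difference was 0.33 ± 0.158 (SE; limma adjusted p = 0.666). In microglia Ptgds reached 824.1 in KO2 B, the library with the highest choroid plexus sum (12635), and at most 57.6 elsewhere. PBS A, with the next highest sum (8666), held 0. The difference there was 0.02 ± 0.269 (SE; adjusted p = 0.994).

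Hpgds was a microglial transcript, at 1582 and 2992 counts with PBS and 1449 to 3806 with exosomes. KO1 libraries held 3114, 3497 and 3806, above all WT (1449, 2818 and 2008) and KO2 (1665, 2580 and 2867) libraries. That order, looked for after these values were seen, was held by 0.867% of microglial genes and by 1 of 9 members, and by 1.94% of endothelial genes and 0 of 8 members. Exosomes minus PBS was 0.12 ± 0.16 (SE; limma adjusted p = 0.947), and no contrast passed. In endothelial cells Hpgds lay at 0 to 70.9 counts outside WT A, which held 360.4, and the difference was -0.01 ± 0.0514 (SE; adjusted p = 0.986). It is not stated whether counting used the strand, and genes on the opposite strand overlap Hpgds (Gm17147), Ptgs1 (Gm43621), Ptgis (1110018N20Rik and Gm14291) and Tbxas1 (Hipk2 among them). Same-strand genes overlap Ptges (Gm13400), Hpgd (Gm45540) and Tbxas1 (Gm23010), so the levels of these members are uncertain to that extent.

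Prostacyclin synthase, Ptgis, the vascular enzyme of the family, was on the endothelial side: 52.4, 369.1 and 47.4 counts with PBS, 403.9 and 746.9 with WT, 0, 579.3 and 91.0 with KO1, and 1650 and 266.4 with KO2. The B library was the highest of every group, and PBS and exosome values overlapped (0.14 ± 0.0979, SE; limma adjusted p = 0.833). Pericyte and smooth muscle markers were also highest in the B library of every group, at 4522 with PBS, 8286 with WT, 7028 with KO1 and 5745 with KO2. So was the number of genes above the floor, at 11952, 10607, 11531 and 10739 in the same order. The part of the markers and of that number was not tested. Microglia held Ptgis only in WT A (184.3), so it was not tested there. Tbxas1, the thromboxane synthase of platelets and macrophages, was the reverse: 0 in all 10 endothelial libraries, and 187.3 to 1000 counts in 10 of 11 microglial ones, with 0 in KO1 A. Its microglial difference was -0.04 ± 0.226 (SE; adjusted p = 0.986). Hpgd, the dehydrogenase that starts prostaglandin breakdown, stood at 70.0 in PBS A and 0 in the other 9 endothelial libraries. In microglia Hpgd stood at 40.3 and 31.1 with PBS and 0 to 273.3 with exosomes, above the floor in 7 of 11 libraries. The difference was -0.15 ± 0.212 (SE; adjusted p = 0.947), while the mean count with exosomes was 2.18 times that with PBS. Its direction was therefore not resolved.

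**Figure D4:**
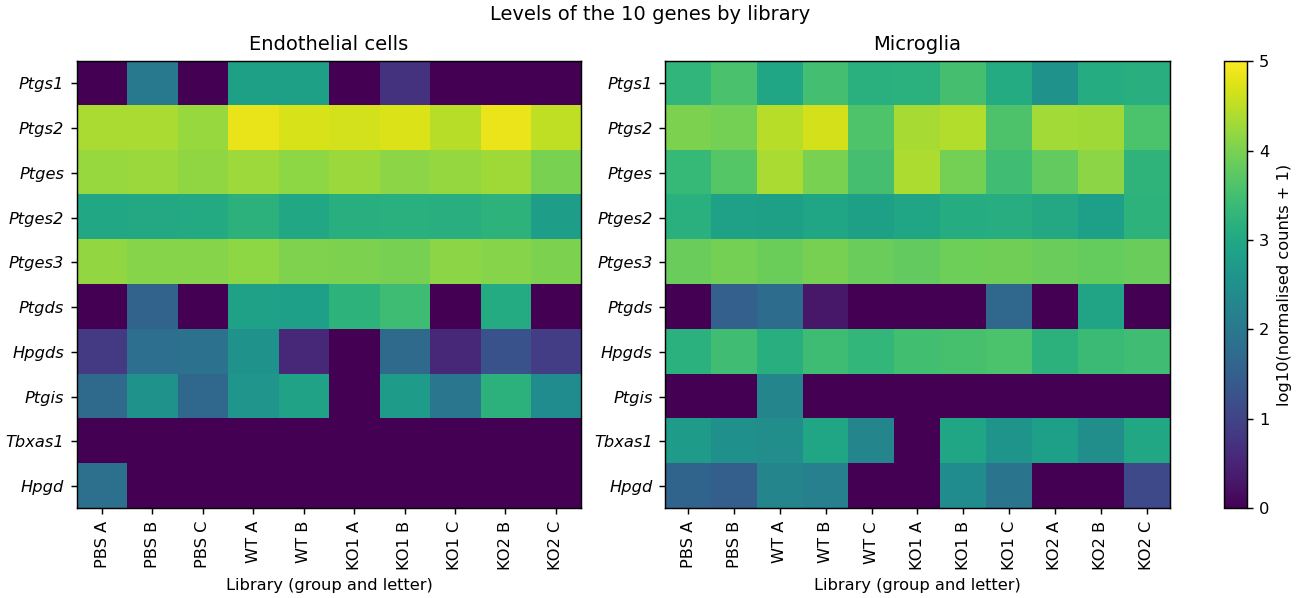
Levels of the 10 genes as log10 of normalised counts plus 1 (colour) in each endothelial and microglial library. Ptgs2, Ptges and Ptges3 are high in both cell types, Hpgds, Tbxas1 and Ptgs1 are mainly microglial, and endothelial Ptgds follows the exosome A and B libraries.

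Of the 10 genes, 8 entered the endothelial test and 9 the microglial one, each needing values above the floor in at least 3 libraries. In these fits, which hold no letter term, no tested member passed in any of the 4 contrasts in either cell type. In endothelial cells 18 genes passed for exosomes minus PBS and 0 in the other contrasts, where 727 to 1214 had an unadjusted p under 0.05. In microglia 1 gene passed for exosomes minus PBS and 0 elsewhere, where 387 to 614 had an unadjusted p under 0.05. An unadjusted p under 0.05 was held by 7.88% of endothelial genes for exosomes minus PBS (1 of 8 members, Ptgs2), by 9.95% for WT minus PBS (2 of 8, Ptgs1 and Ptgs2), by 8.32% for knockout minus WT (1 of 8, Ptgs1) and by 5.96% for KO1 minus KO2 (0 of 8). The corresponding shares of microglial genes were 5.42%, 5.12%, 3.22% and 3.5%, with 0 of 9 members in each.

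Other orders of the libraries gave small counts of members against the same background. Orders by letter follow patterns described above from members, so their counts are not tests. Both endothelial WT libraries lay above all PBS libraries for 14.1% of genes and for Ptgs1, Ptgs2, Ptgds and Ptgis, and above all knockout libraries for 4.46% of genes and for Ptgs1. Endothelial exosome A and B libraries lay above PBS A and B for 4.91% of genes, and exosome C libraries below the other exosome libraries for 5.81%, and Ptgs2 and Ptgds were the members in both. No endothelial member had all exosome libraries below PBS (1.96% of genes), exosome C below every other library (3.43%), or exosome A and B above PBS with C below it (0.279%). In microglia, exosome C libraries lay below every other library for 1.24% of genes and, among members, for Ptgs2. No microglial member had all exosome libraries above PBS (1.77%) or below it (2.12%), or all WT libraries above PBS (8.27%), above the knockouts (0.875%) or above every other library (0.433%).

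Within a table, levels per kilobase of exon gave the order of the genes. With PBS the endothelial order was Ptges3 (6030 counts per kilobase), Ptgs2 (4580), Ptges (4180) and Ptges2 (205). Over all 10 libraries Ptges3 (4280 to 6870), Ptgs2 (3760 to 15600) and Ptges (2470 to 4970) overlapped, and Ptges2 (123 to 341) lay apart below them. With each exosome group Ptgs2 came first, at 12900 with WT, 9280 with KO1 and 11400 with KO2. In PBS microglia the order was Ptges3 (3630), Ptgs2 (2120), Ptges (893), Ptgs1 (718) and Hpgds (356). Over all 11 libraries each of these overlapped its neighbour in the order. The tables were normalised separately, so levels were not tested between cell types.

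**Figure D5:**
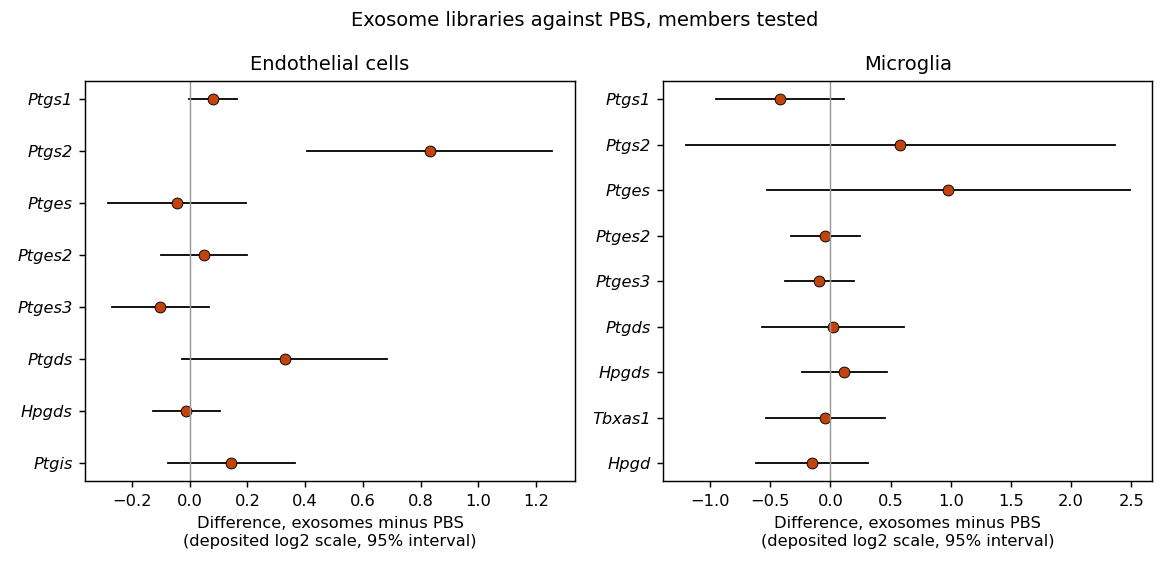
Difference of exosomes minus PBS on the deposited log2 scale (horizontal axes) for the 8 endothelial and 9 microglial members tested, with 95% intervals from limma. The interval of endothelial Ptgs2 (0.41 to 1.26) lies above 0, and those of microglial Ptgs2 and Ptges are wide and include 0.

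The genes around the synthases were described by fixed lists. Of genes that release or re-esterify arachidonate, 0 of 14 passed for exosomes minus PBS in endothelial cells, and 11 had a higher estimate (median 0.04, against -0.01 over all genes). Pla2g4a, the cytosolic phospholipase A2 that feeds cyclooxygenases, stood at 506.1 to 1545 counts with PBS and 738.8 to 5516 with exosomes (limma adjusted p = 0.621). The most abundant in endothelial cells was Pla2g12a, a secreted phospholipase, at 2371 to 3572 and 3078 to 4820 (adjusted p = 0.622). Lpcat3, which re-esterifies arachidonate, followed at 1121 to 2793 and 1097 to 3571. In microglia 0 of 16 passed and 14 had a lower estimate (median -0.10, against 0.00 over all genes). The most abundant were Pla2g4a (4109 to 10291 with PBS, 3531 to 9826 with exosomes), Abhd12 and Acsl4, the last an arachidonate-activating ligase at 4637 to 7477 and 2404 to 6186.

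Prostanoid receptors were weakly expressed, and 0 of 5 tested in endothelial cells and 0 of 6 in microglia passed. Ptger4, the prostaglandin E2 receptor EP4, led both, at 591.1 to 802.5 counts with PBS and 0 to 1604 with exosomes in endothelial cells, and at 305.4 to 526.1 and 0 to 542.9 in microglia. Tbxa2r, the thromboxane receptor, stood at 23.5 to 61.3 and 0 to 33.9 in endothelial cells (adjusted p = 0.427), and Ptgir, the prostacyclin receptor, at 24.5 to 93.0 and 0 to 115.3. In microglia Ptgir reached 993.7, and Ptger2, the EP2 receptor, was at 0 in both PBS libraries and at up to 122.0 with exosomes (adjusted p = 0.909).

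Among genes of prostanoid transport, reduction and breakdown, 1 of 12 passed in endothelial cells. Akr1c14, an aldo-keto reductase and hydroxysteroid dehydrogenase, stood at 122.4 to 186.0 counts in PBS libraries. Exosome libraries held 0 to 0.94 (-0.18 ± 0.02, SE; limma adjusted p = 0.0172). It met the filter of 3 libraries through PBS alone. Values at the floor hardly vary, which makes the SE small, so the call rests on these floor values. Without PBS A, or under a filter on a mean 1 above the floor, 0 endothelial genes were called in this contrast. Exosome libraries other than KO1 B also had fewer genes above the floor (9235 to 10739) than PBS libraries (11305 to 11952), and the part of that in this result was not tested. The transporter Abcc4, which exports prostaglandins, was the most abundant, at 5389 to 6941 with PBS and 3235 to 13115 with exosomes, followed by Slco3a1 (411.9 to 1235 and 710.3 to 2399) and Akr1b8 (570.6 to 891.5 and 506.6 to 1929). In microglia 0 of 10 passed. Akr1b3 (6360 to 13115 and 7115 to 15477) led there, with the carbonyl reductase Cbr1 at 731.6 to 764.5 and 937.2 to 1895 (adjusted p = 0.883) and Ptgr2 at 390.0 to 1212 and 591.8 to 1333.

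No gene passed in the other 3 lists. Among other eicosanoid enzymes (9 tested in each cell type), Lta4h, which makes leukotriene B4, led with 1934 to 2281 counts in PBS endothelial cells and 1169 to 3693 with exosomes. In microglia it stood at 1970 to 2838 and 1046 to 2093 (-0.35 ± 0.11, SE; limma adjusted p = 0.758), and the authors' deposited table lists it with an adjusted p of 0.0108. Among 9 proteins that bind the Ptgs2 transcript, Zfp36, which promotes decay of AU-rich transcripts, stood in microglia at 7855 and 7867 with PBS and 3026 to 13010 with exosomes. In endothelial cells it stood at 4846 to 8533 and 3916 to 9652, below Zfp36l1 (12270 to 14144 and 10441 to 17252). Among 11 Hsp90 genes and co-chaperones, Hsp90ab1 led in endothelial cells, at 102795 to 126343 with PBS and 75449 to 119026 with exosomes (adjusted p = 0.763), and in microglia at 51296 to 61166 and 48420 to 61746. Sgtb, a co-chaperone of that list, is named here after its values were seen. It is in the authors' deposited likelihood ratio table for endothelial cells with an adjusted p of 0.000394. Its means were 335.7 with PBS, 152.9 with WT, 354.0 with KO1 and 0 with KO2. By limma the adjusted p was 0.629 for exosomes minus PBS. For KO1 minus KO2 the difference was 0.256 ± 0.0712 (SE; adjusted p = 0.542). These contrasts are not the authors' test.

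The genes whose deposited log2 values were most like those of Ptgs2 differed between the tables. Over the 10 endothelial libraries the highest Pearson correlations among 1067 genes were Ttr (0.948), Enpp2 (0.938), Lgals3bp (0.928), Tpi1 (0.914) and Apoe (0.902). Ttr and Enpp2 belong to the choroid plexus markers above. Ttr stood at 42.1 to 4307 counts with PBS, 164800 to 276884 in exosome A and B libraries and 2171 to 17389 in exosome C libraries. Endothelial Ptges was at rank 258 (0.252). Over the 11 microglial libraries the highest of 5226 were Ccrl2 (0.978), Cxcl1 (0.95), Sod2 (0.948), Ets2 (0.944) and Acod1 (0.943). Acod1, the itaconate-producing enzyme of activated macrophages, stood at 1320 and 2778 with PBS, 11185 to 26041 in exosome A and B libraries and 368.2 to 629.5 in exosome C libraries. Microglial Ptges was at rank 85 (0.774), and Ptgs1 at rank 1769 (0.19). These correlations describe libraries that share groups and letters, and carry no test.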

How the data were processed

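RNA was sequenced from sorted endothelial cells and microglia. The authors used DESeq2 (1.18.1), Salmon (0.10.0), Trimmomatic (0.38), FastQC (0.11.7) and the build GRCm38.p6, per the submitters' processing notes, without stated roles. The authors deposited variance-stabilised log2 values for 20555 genes per cell type, in which a gene without reads sits at a floor (13.2814 and 9.8893). They also deposited likelihood ratio tables of 362 and 238 genes with a mean count (a signal), a fold change and statistic (log2 values and scores) and p-values. Of 24 labelled samples, 21 have a column, and 3 were not analysed here.

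Normalised counts were recovered by the closed inverse in endothelial cells (ratio to the authors' means 1.0000). For microglia, the inverse was a monotone curve that passes through the deposited means and the steps of low read numbers (largest held-out error 0.572%). Values below a mean of 54.3 there are approximate. Of low endothelial values, 72.3 to 88.9% lay within 0.05 of a whole read. The limit of 3 reads behind a 0 covers counting error only, and the 95% intervals are limma's, from the spread among libraries.

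Differences were tested with limma 3.58.1 (R 4.3.3) on the deposited log2 values of genes above the floor in at least 3 libraries, with a trend, 1 fit per cell type over its 4 groups, no letter term, and Benjamini-Hochberg adjustment over all genes at 0.05. The steps were tested on simulated data. Alternatives were a filter on a mean 1 above the floor, no filter, log2 of recovered counts plus 10 or 50, median centring, a letter term, leaving out libraries, and only the groups compared.

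The members, the 6 pathway lists, the marker lists and the tests were chosen with earlier results of these data known. All 10 members are named. From the lists, genes that passed and up to 3 of highest mean level are named, besides the 5 genes most correlated with Ptgs2. Sgtb is an exception, named after its values were seen. Symbols, available for 20537 genes, and promoters are from RefSeq (GRCm38.p6), and exon lengths and overlaps from GENCODE vM21.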

Additional observations from a re-analysis of the deposited data

How the results depend on the processing

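No member passed the limma test as reported, and of 548 refits of the 29 member differences printed, 514 kept sign and call, 27 changed sign and 7 passed. Over all 68 member differences in the 4 contrasts, 107 of 1307 refits had the opposite sign (39 without counting single left-out libraries) and 7 passed. Endothelial Ptgs2 stayed higher with exosomes, at 0.694 to 1.233.

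Endothelial genes called for exosomes minus PBS numbered 18 as reported. They numbered 0 under the filter on the mean, 6 with median centring, 1 without the C libraries and 0 without the B exosome libraries, and 0 to 11 when 1 library was left out. For WT minus PBS the 0 became 9 with no filter, 3 with 10 added and 13 with 50 added to recovered counts, and 0 to 10 with 1 library left out. For knockout minus WT it became 6, 11 and 6 in that order, 2 with median centring, and 0 to 46 with 1 left out, 46 being without WT B. For KO1 minus KO2 it became 1 under the filter on the mean, 3, 2 and 3 in the same order, and 0 to 14. In microglia the 1 call for exosomes minus PBS became 0 under the filter on the mean, 10 with 10 added, 9 with 50 added, 0 without the C libraries and 0 to 2 with 1 left out. The 0 for WT minus PBS became 1 with no filter, 4 with 50 added and 0 to 2, that for knockout minus WT 0 to 1, and that for KO1 minus KO2 1 with no filter, 1 with 10 added and 1 with 50 added. The causes were not tested.

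The letters were not taken as pairs, since only 7 of 12 same-letter correlations of deviations were over 0.1 in endothelial cells (0.022 to 0.228) and 7 of 15 in microglia (0.013 to 0.33). All of these were positive. Correlations between different letters ran from -0.228 to 0.113 in endothelial cells and from -0.246 to 0.065 in microglia. Deviations are from group means, which lowers values between different letters where same-letter values are positive. It does not by itself make same-letter values positive. The fits as reported hold no letter term. With the letter as a replicate block, calls for exosomes minus PBS went from 18 to 0 in endothelial cells and from 1 to 28 in microglia, where WT minus PBS went from 0 to 19. Microglial Ptgs2 passed there at 1.382 (adjusted p = 0.0427) and, for WT minus PBS, at 1.764 (adjusted p = 0.0292). Without the C libraries and with the replicate block, 1 endothelial gene was called for exosomes minus PBS, and in microglia 4 for exosomes minus PBS and 1 for WT minus PBS, and Ptgs2 did not pass (adjusted p = 0.171). Under that fit the endothelial differences were 0.014 for Hpgds and 0.02 for Ptges with exosomes, and 0.028 for Ptgs2 in knockout minus WT.

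Other changes of sign, some larger than the reported estimate, were as follows. Endothelial Hpgds was 0.01 without the C libraries and 0.016 without the B exosome libraries, endothelial Ptgs2 was 0.015 for knockout minus WT without C and 0.096 for KO1 minus KO2 without the B exosome libraries, and microglial Hpgd was 0.182 with 50 added. With 1 library left out, exosomes minus PBS ran from -0.053 to 0.03 for endothelial Hpgds and -0.13 to 0.04 for endothelial Ptges. In microglia it ran from -0.216 to 0.26 for Ptgds, -0.121 to 0.064 for Tbxas1, -0.123 to 0.354 for Hpgds, -0.223 to 0.041 for Ptges3 and -0.218 to 0.137 for Ptges2. Knockout minus WT ran from -0.328 to 0.093 for microglial Ptgs1 and -1.533 to 0.109 for microglial Ptgs2. KO1 minus KO2 ran from -0.595 to 0.228 for endothelial and -0.47 to 0.971 for microglial Ptgs2.

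Endothelial Ptgs1 in knockout minus WT passed with no filter (adjusted p = 0.0409), with 50 added (0.0406), with median centring (0.0424), without PBS B (0.0186) and without WT B (0.0454), and its adjusted p reached 0.651 elsewhere. A fit of only the groups compared is the reported fit for exosomes minus PBS, so it gave no other value. Leaving out the C libraries or the B exosome libraries was chosen after seeing the data. Values of 0 or of a few reads in some libraries limit Ptgds, Ptgis, Tbxas1 and Hpgd, and endothelial Hpgds and Ptgs1. The microglial depth is unknown.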
